A study of Mus musculus with 2 samples.

Results

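Tnfrsf4 and Tnfrsf18 are neighbouring genes on mouse chromosome 4 that encode the costimulatory receptors OX40 and GITR of T cells. They were examined as a stretch of 90 kb that holds both, from 155350001 to 155440000 of build mm9, cut into 90 bins of 1 kb out of 2246042 covered bins in the genome. The interval was defined by position, and the members and windows were chosen with earlier results of these data known. The definition places Tnfrsf4 near the start of the bin from 155387001 and Tnfrsf18 near that of the bin from 155400001. A window of 6 kb was taken around each of these positions. Chromatin immunoprecipitation followed by sequencing (ChIP-seq) had been carried out on Th2 cells, which make interleukin 4 and direct antibody and allergic responses. CD4+CD62L+ spleen cells of C57BL/6 mice had received anti-CD3/CD28, 10 ng/ml of IL-4 and 2 µg/ml of anti-IFN-g over 5 days, before a rest of 3 days, per the labels' protocols. The libraries differ in the antibody, which was anti-H3KAc, for histone H3 with acetylated lysines as found at active promoters and enhancers, or polyclonal rabbit IgG, the control for non-specific background. There was 1 library per antibody, so no p-value is given, and every 95% interval below covers counting error and compares these 2 libraries.

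OX40 and GITR belong to the tumour necrosis factor receptor superfamily. They sit on the surface of activated and regulatory T cells, bind the ligands OX40L (Tnfsf4) and GITRL (Tnfsf18) on antigen-presenting cells, and signal through TRAF adaptor proteins to NF-kB. OX40 prolongs the survival of activated T cells and is known for its part in Th2 responses, and GITR costimulates effector T cells and is abundant on regulatory T cells.

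Both genes are transcribed along the plus strand, so higher coordinates lie downstream. In the RefSeq gene table (GRCm38.p6), Sdf4, which encodes a calcium-binding protein of the Golgi, precedes Tnfrsf4 and its annotated end reaches into the start of Tnfrsf4. The small nuclear RNA gene Gm25982 is listed between Tnfrsf4 and Tnfrsf18. The long noncoding RNA Gm16008, on the minus strand, overlaps Tnfrsf18, and Ttll10, a tubulin ligase-like gene on the minus strand, follows. B3galt6, a galactosyltransferase gene on the minus strand, lies on the far side of Sdf4. That table is on another build than the reads, so it was used for gene names, strands and their order, and the start site of each gene was known here to the kilobase the interval's definition gives. For the same reason, levels at the ligand, adaptor and NF-kB genes of the pathway and at marker genes of Th2 cells were not analysed here. Of 20 such pathway genes, 5 lie on chromosome 4 in the table, namely Tnfrsf1b, Tnfrsf8, Tnfrsf9, Tnfrsf14 and Tnfrsf25, all receptors of the same superfamily.

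The sequences before the starts are shown because the acetylation described below lies around and downstream of the genes' positions. They were not placed among the mm9 bins. They come from RefSeq on GRCm38.p6, plus strand, end at the base before the start, and have CpG dinucleotides, the sites of DNA methylation, in capitals. The Tnfrsf18 sequence spans chr4:156026072-156026321. That of Tnfrsf4 is its last 30 bases, chr4:156013665-156013694, since the stretch before them runs into the annotated end of Sdf4.
Tnfrsf4: tctgcacctctcttcaCGttccccagCGgc
Tnfrsf18: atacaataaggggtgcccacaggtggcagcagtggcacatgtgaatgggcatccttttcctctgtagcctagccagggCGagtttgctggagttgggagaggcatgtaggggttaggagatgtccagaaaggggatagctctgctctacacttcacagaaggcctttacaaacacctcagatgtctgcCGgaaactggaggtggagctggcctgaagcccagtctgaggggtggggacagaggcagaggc
Over the 250 bases before its start, Tnfrsf18 held 2 CpGs, and 18.8% of the 32851 RefSeq promoter sequences held fewer. Tnfrsf4 held 5 CpGs over the same length, and 44.4% held fewer. The median was 6. The GC content was 42.8% for Tnfrsf4 and 56% for Tnfrsf18, against a median of 52.4%. Neither sequence had a match, on either strand, to any of 7 motifs searched. TATAAA, which marks the TATA box, occurred in 12.4% of all promoter sequences of the table. The GC box, searched as GGGCGG, occurred in 32.7%. For GATA factors, such as the Th2 regulator GATA3, the letters AGATAA were found in 9.99%. For AP-1, the letters TGACTCA were found in 4.46%, and for RUNX factors the letters TGTGGT were found in 14.1%. The 10-letter STAT6 and NF-kB motifs occurred in 5.85% and 1.21%. A missing match says only that the motif's letters were not within these 250 bases.

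The H3KAc library held 19711169 distinct read positions and the IgG library 1897666, and levels are given per 1000000 distinct positions of the library (RPM). A single position was thus worth 0.0507 RPM in H3KAc and 0.527 RPM in IgG, so IgG limited the precision of every ratio. All values are distinct positions, with each read moved 100 bp along its strand towards the middle of its fragment.

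H3KAc across the interval was gathered in a few clusters of bins, among them 1 just downstream of each gene's position. Single bins held between 1 and 243 H3KAc positions with a median of 18, against a median of 6 over all covered bins, and 81 of the 90 bins lay above that median. The level exceeded the 99th percentile of covered bins (46 positions, 2.33 RPM) in 16 of 90 bins, against 0.974% of all covered bins. These 16 bins fell into 6 runs. From left to right along the chromosome, a run of 3 bins before both genes held 454 positions, a run of 2 bins just before Tnfrsf4 held 101, and 4 bins from the Tnfrsf4 position on held 395. A single bin between the genes held 60, the 3 bins from the Tnfrsf18 position on held 320, and 3 bins further downstream held 234. The 90th percentile (19 positions) was exceeded in 44 bins, against 8.88% of all covered bins. Over the 90 kb together, H3KAc was 146.5 RPM (95% interval 141.2 to 152) and IgG 80.1 RPM (67.9 to 93.9), a ratio of 1.83 (1.55 to 2.17).

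**Figure D1:**
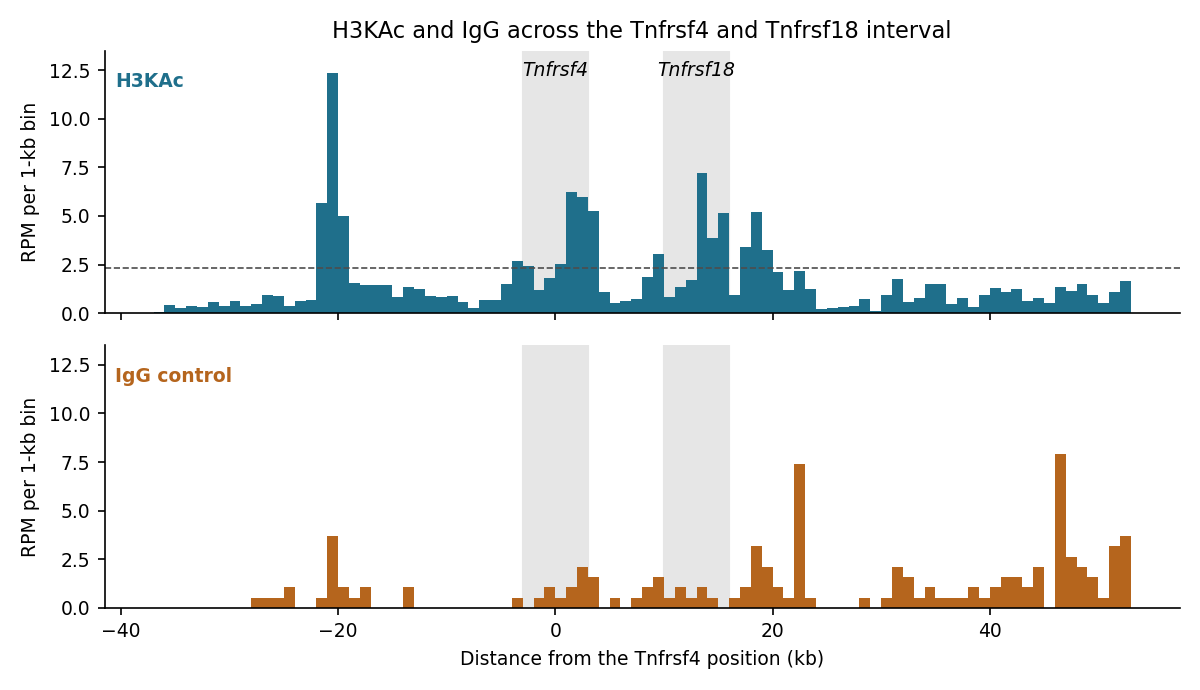
H3KAc (top) and IgG (bottom) in RPM per 1-kb bin, plotted by distance in kb from the Tnfrsf4 position. Grey bands are the 6-kb windows around the 2 genes and the dashed line is the 99th percentile of all covered bins in H3KAc, 2.33 RPM. H3KAc is high in clusters just right of each gene's position and in a cluster about 20 kb before Tnfrsf4, where the highest bin reaches 12.3 RPM.

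Tnfrsf4, the OX40 gene, carried H3KAc well above the level of most of the genome. Its 6-kb window (155384001 to 155390000) held 398 H3KAc positions, 20.2 RPM (18.3 to 22.3), and 10 IgG positions, 5.27 RPM (2.53 to 9.69). The ratio was 3.83 (2.06 to 8.05). Of 1647735 covered and overlapping 6-kb windows in the genome, 0.152% held at least as many H3KAc positions, and the median of all these windows was 2.54 RPM. IgG in the window was also above the IgG median of 2.11 RPM, at the 79.6th percentile of windows.

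Within the Tnfrsf4 window the acetylation lay on the downstream side. The 6 bins held 48, 23, 36, 50, 123 and 118 H3KAc positions in order along the chromosome, with 0, 1, 2, 1, 2 and 4 IgG positions. The next bin, just outside the window, held 104 H3KAc and 3 IgG positions, and the one after it 21 and 0. The level was 1.83 RPM in the bin before the position of the gene, and 6.24, 5.99 and 5.28 RPM in the 3 bins from 155388001 on. The 4 kb from the position on, an extent chosen after the profile was seen, held 2.47 times the H3KAc of the 4 kb before it (2.05 to 2.99), 395 against 160 positions. IgG differed in the same direction, with 10 against 4 positions, a ratio of 2.5 (0.721 to 10.9) that its counts could not separate from 1. The H3KAc over IgG ratio was 3.80 (2.05 to 7.99) from the position on and 3.85 (1.48 to 14.3) before it, and the former was 0.988 times the latter (0.223 to 3.49).

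Tnfrsf18, the GITR gene, had nearly as many H3KAc positions as Tnfrsf4. Its window (155397001 to 155403000) held 397 H3KAc positions, 20.1 RPM (18.2 to 22.2), and 7 IgG positions, 3.69 RPM (1.48 to 7.6), a ratio of 5.46 (2.63 to 13.7). At least as many H3KAc positions were found in 0.154% of 6-kb windows. IgG was at the 65.5th percentile of windows. Of the 7 IgG positions 1 lay on the plus strand, and the ratio from plus-strand reads alone was 19.1 (3.39 to 758), against 3.19 (1.44 to 8.79) from minus-strand reads.

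The bins of the Tnfrsf18 window held 16, 27, 34, 142, 76 and 102 H3KAc positions and 1, 2, 1, 2, 1 and 0 IgG positions. The step came in the bin at the gene's position, 155400001, and the bin 3 kb later held 18 H3KAc positions. At Tnfrsf4 the step came in the bin after the position. Both positions were known to the kilobase, so this offset of 1 bin cannot be read as a difference between the genes. The 4 kb from the Tnfrsf18 position on, an extent chosen after the profile was seen, held 338 H3KAc positions. The 4 kb before it held 137, a ratio of 2.47 (2.02 to 3.03). IgG counts went the other way here, with 4 against 7 positions, a ratio of 0.571 (0.123 to 2.25) that could not be separated from 1. The H3KAc over IgG ratio was 8.13 (3.15 to 30.0) from the position on and 1.88 (0.89 to 4.78) before it. The former was 4.30 times the latter (1.07 to 20.4), with a lower bound that rests on these 4 and 7 IgG positions.

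**Figure D2:**
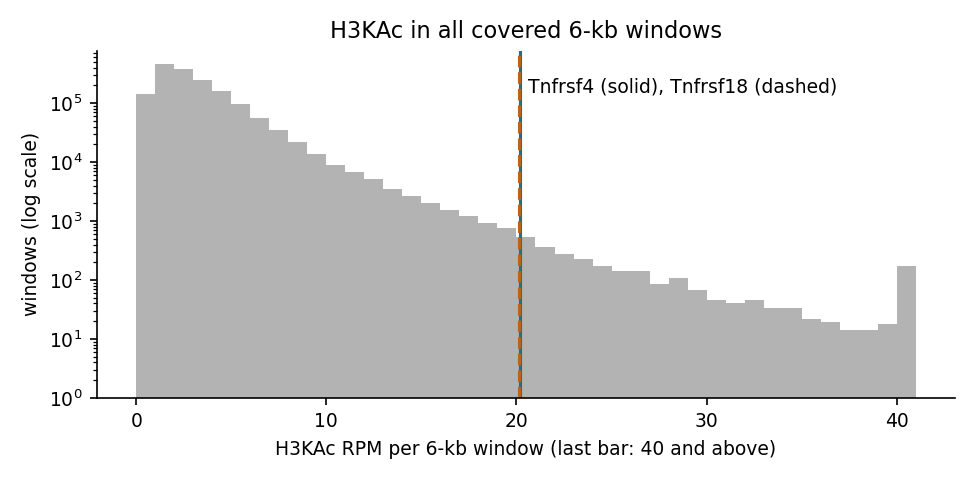
Number of covered 6-kb windows (log scale) by H3KAc level in RPM, with the Tnfrsf4 window as a solid line and the Tnfrsf18 window as a dashed line. The lines nearly coincide at 20.2 and 20.1 RPM, far to the right of the median of 2.54 RPM.

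The 2 genes did not differ in H3KAc beyond counting error when their 6-kb windows were compared. The Tnfrsf4 to Tnfrsf18 ratio of positions was 1.003 (0.870 to 1.155) in H3KAc and 1.43 (0.491 to 4.42) in IgG. That ratio depended on where the window was laid. It was 0.832 (0.696 to 0.993) with windows of 4 kb centred on the positions, which leave out part of the downstream Tnfrsf4 signal, and 1.17 (1.01 to 1.35) in the 4 kb downstream, a window chosen after the profile was seen. With 10-kb windows it was 1.05 (0.932 to 1.17). The ratio of the genes' H3KAc over IgG ratios was 0.702 (0.224 to 2.07), so a difference in enrichment over IgG was not detectable at this depth.

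The shape of the H3KAc counts differed between the genes, as a broad plateau at Tnfrsf4 and a narrow peak followed by a lower plateau at Tnfrsf18. The strands of that narrow peak had an unusual layout, given below, and whether it is a peak of acetylation was not tested. In bins of 200 bp, Tnfrsf4 held 13 to 35 H3KAc positions in every bin from 1000 to 3400 bp past its position, and 3 to 15 in the bins before 1000 bp. Tnfrsf18 held 51 and 53 positions in the adjoining bins at 400 and 600 bp past its position, then 5, and then 12 to 29 between 1000 and 3000 bp. The highest pair of 200-bp bins made up 30.8% (exact binomial 25.9 to 36.0) of the positions in the 4 kb downstream at Tnfrsf18 and 17.2% (13.6 to 21.3) at Tnfrsf4. These bins were picked for being the highest in each gene, so the shares are descriptions.

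The Tnfrsf18 peak was made of many different read starts on both strands. This describes repeats at 1 position only, and whether these reads had several alignments was not tested. When reads were not moved, the 200 bp from 155400501 to 155400700 held 41 plus-strand and 36 minus-strand starts in H3KAc and none in IgG. An IgG level below a fixed floor of 3 positions (1.58 RPM), which is not an exact Poisson bound, was not told from none. The 77 starts came from 87 reads, and no start was read more than 3 times. The densest 200 bp held 22.8% (18.5 to 27.6) of unmoved starts in the 4 kb downstream of Tnfrsf18, against 9.77% (7.01 to 13.2) for Tnfrsf4. The move of 100 bp carries plus-strand and minus-strand starts of 1 place in opposite directions. After it, the bin at 400 bp held 15 plus-strand and 36 minus-strand positions, and the bin at 600 bp held 41 and 12. With fragments of about 200 bp, plus-strand starts lie before minus-strand ones, and the move brings them together. Here both strands started within the same 200 bp and the move set them apart. The reason was not tested. A second narrow site lay between the genes, 4 kb before the Tnfrsf18 position. There the 200 bp from 155395901 to 155396100 held 24 plus-strand and 21 minus-strand starts in H3KAc and 1 start in IgG. The strands were set apart by the move here too. The bin from 155395801 then held 4 plus-strand and 21 minus-strand positions, and the bin from 155396001 held 24 and 7. Whether the small RNA gene Gm25982 lies at this site was not determined. These sites were chosen after the profile was seen.

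**Figure D3:**
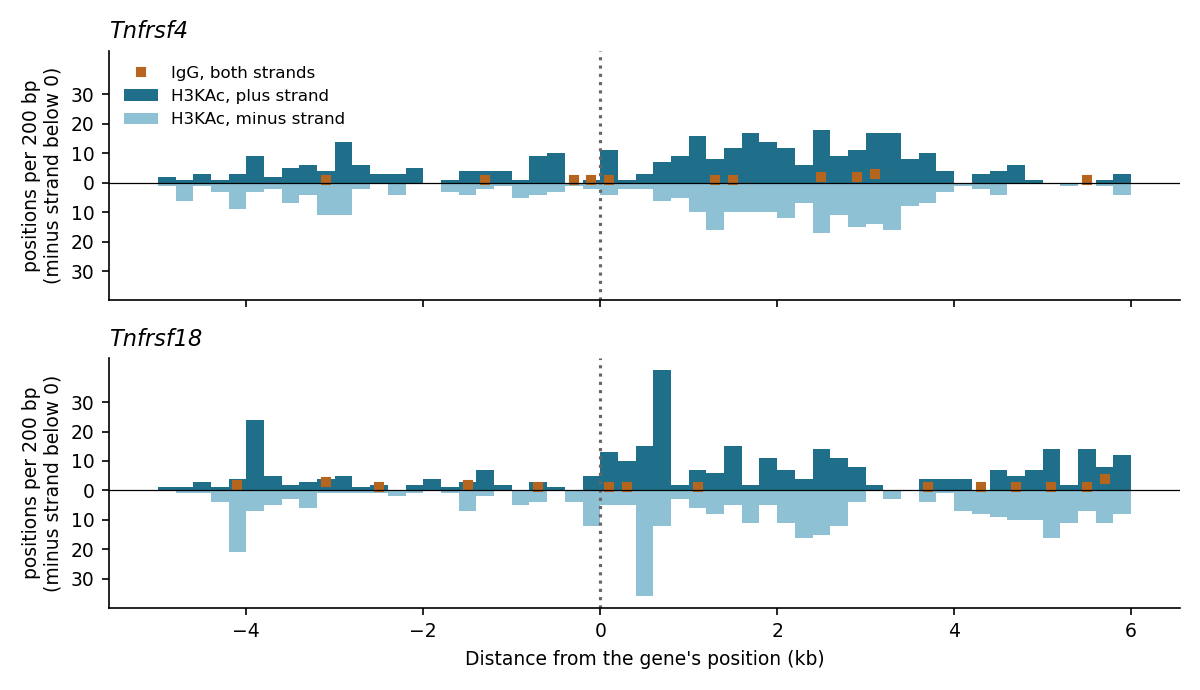
H3KAc positions per 200 bp on the plus strand (up) and the minus strand (down, as counts), and IgG positions on both strands as squares where above 0, by distance in kb from each gene's position, with reads moved 100 bp. Tnfrsf4 shows a plateau from about 1 to 4 kb, and Tnfrsf18 a narrow peak of 51 and 53 positions within 1 kb of its position and a lower plateau to 3 kb. Within that peak the minus strand is higher in the first bin and the plus strand in the second.

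Outside the gene windows the levels were lower per kb but not flat. The 7 kb between the windows (155390001 to 155397000) held 258 H3KAc positions, 1.87 RPM per kb, against 3.37 and 3.36 RPM per kb in the gene windows, and the Tnfrsf4 window was 1.80 times as high (1.53 to 2.11). Of these 258, 104 lay in the bin that continues the Tnfrsf4 plateau and 60 in the bin with the second narrow site. The 4 bins from 155391001 held 21, 10, 12 and 14 positions, against 104 in the bin before them and 37 in the bin after them. The level thus dipped between the genes. All 4 bins still lay above the median of 6 over all covered bins, and the first lay above the 90th percentile. The H3KAc over IgG ratio between the windows was 2.48 (1.33 to 5.24). The ratio in the Tnfrsf4 window was 1.54 times this value (0.567 to 4.19) and in the Tnfrsf18 window 2.20 times (0.744 to 6.89), and neither could be told from 1 at this depth.

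The highest bin of the interval was not at either receptor gene. It lay from 155366001 to 155367000, 21 kb before the Tnfrsf4 position, with 243 H3KAc positions, 12.3 RPM (10.8 to 14.0), and 7 IgG positions, a ratio of 3.34 (1.60 to 8.40). Its neighbours held 112 and 99 H3KAc positions with 1 and 2 IgG positions. These bins lie on the side of Tnfrsf4 where Sdf4 and B3galt6 are listed, and which gene start they cover was not determined, because the table is on another build. The 34 kb before the Tnfrsf4 window averaged 1.43 RPM per kb in H3KAc and 0.326 in IgG, a ratio of 4.38 (2.85 to 7.11). Per kb, the Tnfrsf4 window was 2.36 times as high in H3KAc (2.10 to 2.66) and 2.70 times as high in IgG (1.14 to 5.99). Its H3KAc over IgG ratio was 0.875 times that of these 34 kb (0.390 to 2.10), and that of the Tnfrsf18 window was 1.25 times (0.506 to 3.50), so no difference in enrichment over IgG was detectable there.

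Downstream of Tnfrsf18 a further cluster of bins had a high H3KAc level, and IgG was high there too. The bins from 155404001 to 155407000 held 67, 103 and 64 H3KAc positions with 2, 6 and 4 IgG positions, and none of their ratios to IgG in the same bin had a lower bound above 1. With IgG over 11 bins, described below, their lower bounds were 1.36, 2.16 and 1.36. Over the 37 kb after the Tnfrsf18 window, 1.21 RPM per kb was measured in H3KAc and 1.48 in IgG. The ratio was 0.815 (0.664 to 1.01). The H3KAc over IgG ratio in the Tnfrsf4 window was 4.70 times that of the segment (2.42 to 10.2), and in the Tnfrsf18 window 6.70 times (3.10 to 17.2). H3KAc per kb contributed 2.79-fold (2.47 to 3.14) and 2.78-fold (2.46 to 3.14) to these differences. IgG per kb was 0.593 times (0.276 to 1.14) and 0.415 times (0.163 to 0.886) that of the segment. The segments before and after the genes differed less in H3KAc, with 1.18 times as much per kb before them (1.08 to 1.30), than in IgG, with 0.22 times as much before them (0.131 to 0.354). The IgG level was at the 14.7th percentile of 34-kb windows before the genes and at the 94.2nd of 37-kb windows after them.

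**Figure D4:**
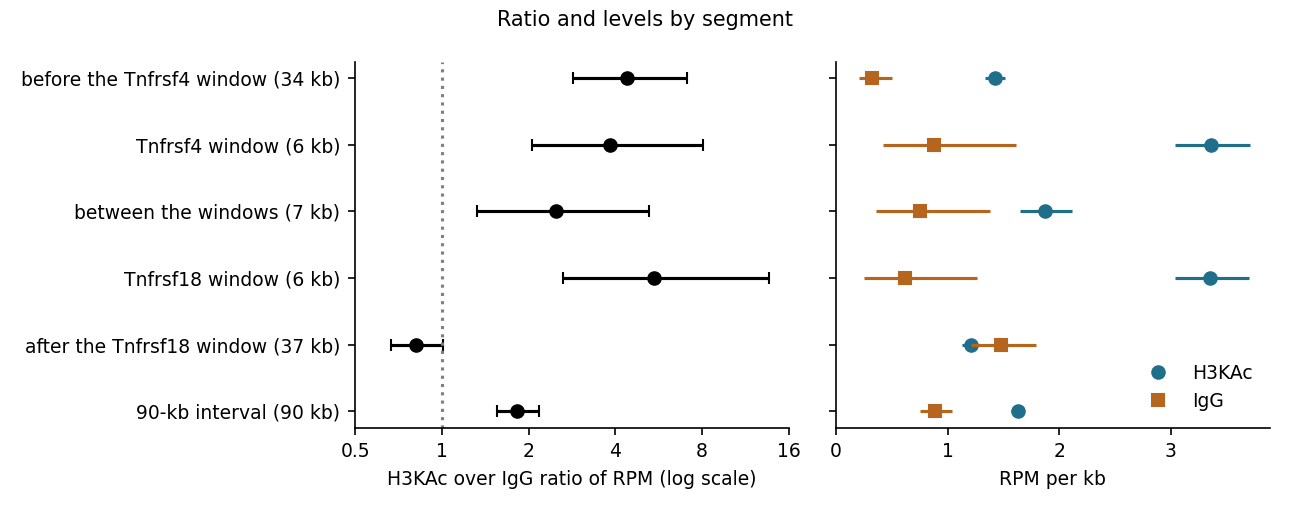
Left, H3KAc over IgG ratio of RPM (log scale) with 95% intervals for 5 segments and the whole interval. Right, H3KAc (circles) and IgG (squares) in RPM per kb with exact Poisson 95% intervals. The gene windows have the highest H3KAc per kb, 3.37 and 3.36, and the segment after Tnfrsf18 the highest IgG per kb, 1.48.

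Of the 90 bins, 33 held no IgG position (36.7%, against 60.5% of all covered bins). A call required 5 positions over the 2 libraries, which 87 of the 90 bins had. Over the genome, 1409765 of the 2246042 covered bins had them. The shares below are of all covered bins, including those that could not be called. A bin with these 5 positions counted as enriched if its H3KAc over IgG ratio had a lower 95% bound above 2. This rule called 1 of the 90 bins, against 0.0524% of all covered bins. It was the bin from 155402001 to 155403000 in the Tnfrsf18 window, with 102 H3KAc positions and no IgG position, and a lower bound of 2.61. The bin with more H3KAc at the Tnfrsf18 position, with 142 and 2 positions, had a ratio of 6.83 (1.86 to 57.0) and was not called. With a lower bound above 1 the rule called 10 bins, against 0.409% of all covered bins. Of these, 3 were in the Tnfrsf18 window, from 155400001 on. The Tnfrsf4 plateau gave 3 more, with ratios of 5.92 (1.61 to 49.4), 2.84 (1.08 to 10.6) and 3.34 (1.11 to 16.4), and the bin from 155384001, with 48 H3KAc and no IgG positions, had a lower bound of 1.21. The other 3 were the bins about 20 kb before Tnfrsf4. With IgG taken from the bin and the 5 bins to either side of it, 11 in all, 18 bins were called, against 1.35% of all covered bins. Of these, 3 were bins of the Tnfrsf4 plateau from 155388001 and 3 the bins from the Tnfrsf18 position. The other 12 lay elsewhere, with 3 bins from 155365001, 3 from 155373001, 1 at 155377001 with 17 H3KAc positions, 3 from 155382001, 1 at 155396001 and 1 at 155405001.

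A single bin was called under-represented, with an upper bound below 0.5, against 0.395% of all covered bins. It lay from 155433001 to 155434000, 33 kb after the Tnfrsf18 position, with 27 H3KAc and 15 IgG positions and a ratio of 0.173 (0.089 to 0.351). The bin from 155409001, 9 kb after the Tnfrsf18 position, held 14 IgG positions and had a ratio of 0.296 (0.159 to 0.585). The next highest IgG count was 7, in the bins from 155366001 and 155439001. No bin of either gene window held more than 4 IgG positions. Across the 90 bins, H3KAc and IgG positions had a Pearson r of 0.323 and a Spearman rho of 0.557. The bins share both libraries and their depth, so this is a description.

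Few H3KAc reads at the genes were repeats. A position was read 1.13 times on average in the Tnfrsf4 window and 1.12 times in the Tnfrsf18 window in H3KAc, close to the 1.11 times of the whole library. In IgG the same windows had 4.4 and 4.14 reads per position, against 4.02 in the whole library. With all deposited reads counted, the ratios were 3.58 (2.62 to 5.00) at Tnfrsf4 and 5.33 (3.66 to 8.06) at Tnfrsf18, in intervals that count copies as independent. H3KAc positions on the plus strand made up 55.0% (exact binomial 50.0 to 60.0) of the Tnfrsf4 window and 50.9% (45.9 to 55.9) of the Tnfrsf18 window.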

How the data were processed

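The authors deposited 1 file of read positions per library, with chromosome, start, end and strand of each 35-base read, aligned with Bowtie to mm9 per the submitters' processing notes. No Bowtie version and no rule for reads with several alignments is stated there. The deposited values are other than counts or levels, so each count was computed here. Repeats at 1 position (same 5' end, strand and chromosome) were removed, and reads were moved 100 bp and assigned to 1-kb bins. Ratios of RPM have exact conditional binomial (Clopper-Pearson) 95% intervals, and levels exact Poisson ones. Percentiles are shares of all covered bins or windows with fewer positions. Named bins are those called, the 10 highest in H3KAc, the 3 highest in IgG and those of the gene windows, beside further bins needed to describe the runs. The members, lists and windows were chosen with earlier results of these data known. The calling was tested on simulated data. The software was scipy 1.17.1, numpy 2.4.6 and matplotlib 3.10.9 on Python 3.11.15, with tables read by pandas 2.3.3.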

Additional observations from a re-analysis of the deposited data

How the results depend on the processing

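The H3KAc over IgG ratio stayed above 1, lower bound included, under all settings tried, which were 9 for each gene window and 6 for the 90-kb interval. It ranged from 3.30 to 4.17 at Tnfrsf4, from 3.19 to 19.1 at Tnfrsf18 and from 1.74 to 1.93 over the interval. The 19.1 came from plus-strand reads, of which IgG had 1 in the Tnfrsf18 window, and no other ratio left the 95% interval of its reported value. The Tnfrsf4 to Tnfrsf18 ratio in H3KAc was 0.832 with 4-kb windows and 1.17 in the 4 kb downstream, a setting chosen after seeing the data, and between 0.918 and 1.08 in the other 5. The number of enriched bins rose from 1 to 18 with IgG over 11 bins (1.35% of all covered bins), and to 15 when every deposited read was counted. It was 10 for a bound of 1 in place of 2 (0.409% of all covered bins) and 0 for a bound of 4. It was 1 under the other 6 settings, which include bins of 500 bp. For all reads, the bound of 4 and these 6 settings, no share over the genome is given. Their numbers therefore cannot be set against the genome. Only the numbers of bins were compared, and the bin called need not be the same one in each setting. The cause of the rise with all reads was not tested. With 1 library per antibody, no replicate could be left out and no paired analysis was possible. A mean of 0.845 IgG positions per covered bin limits every bin-level ratio.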
